A study of Mus musculus with 12 samples.

Results

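The genes described are 10 components of the signaling route from prolactin and growth hormone to insulin-like growth factor 1: the receptors Prlr and Ghr, the kinase Jak2, the transcription factors Stat5a and Stat5b, the feedback inhibitors Socs2, Socs3 and Cish, and Igf1 with its receptor Igf1r. The members were all ATAC-seq peaks assigned to one of these gene symbols, whatever their measured change. The genes themselves were chosen with earlier results of these data known. They came to 81 of 58558 peaks in brown adipose tissue (BAT) and 39 of 39558 peaks in inguinal white adipose tissue (iWAT). ATAC-seq uses a transposase that cuts open DNA, so the reads in a peak measure how accessible the chromatin is there. All mice were C57BL/6 and carried floxed alleles of BAF60a, which is encoded by the gene Smarcd1 and belongs to the nucleosome-moving SWI/SNF complexes. The flox groups had no Cre, and the AKO groups also carried Adiponectin-Cre, which deletes BAF60a in adipocytes while the other cells of the whole fat pad keep it. BAT came from 3 flox and 3 AKO mice, each a sample of its own, whose age is not given in the sources used here. iWAT came from mice aged 6 to 8 months that were cold-acclimated and held at 10 °C for 7 days. The fat pads of 6 mice per genotype were pooled and divided, so the 3 iWAT samples of a genotype are aliquots of 1 pool, and their p-values measure the spread between aliquots only. The comparison asks whether loss of BAF60a in adipocytes changed accessibility at the genes of this route.

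Prolactin and growth hormone bind cytokine receptors that have no enzyme activity of their own. Binding activates the receptor-bound kinase JAK2, which phosphorylates STAT5A and STAT5B, and these pair, enter the nucleus and bind GAS elements near their target genes. Cish, Socs2 and Igf1 are classic STAT5 targets, the products of Cish, Socs2 and Socs3 damp the signal, and in fat the growth hormone branch favors lipolysis while the prolactin receptor takes part in adipocyte differentiation.

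Reads in peaks ranged from 6336670 to 27500738 per BAT sample, with flox replicate 1 the deepest and AKO replicate 2 the shallowest, and from 4066720 to 6691161 per iWAT sample. All values below are normalized reads, read numbers scaled by one factor per sample, and each tissue was normalized and tested on its own. In BAT, the second Smarcd1 peak, in intron 4 of the targeted gene, held 136, 201 and 185 normalized reads (flox) against 23.7, 57.9 and 26.9 (AKO; adjusted p = 0.269 by limma). Whether that peak lies in the deleted stretch is not given in the sources used here, while the promoter peak of Smarcd1 overlapped between the groups in both tissues. The first principal component (PC1) of the log2 values, the main axis of variation between samples, carried 55.6% of the variance in BAT and was highest in AKO replicate 2 and lowest in flox replicate 1. Its scores were -98.2, -41.8 and 14.6 in the flox and -0.617, 112 and 13.5 in the AKO samples, which overlap but lie mostly higher in AKO. PC1 entered the BAT fit as a covariate, as in the study's methods, and can take up part of a genotype difference there. Start-site peaks of 6 adipocyte markers summed to 12388 to 14602 normalized reads in flox and 8527 to 12305 in AKO BAT, those of 4 brown adipocyte markers to 2905 to 4356 and 1912 to 2281, those of 5 endothelial markers (Pecam1 and Cdh5 without a peak) to 191 to 234 and 236 to 321, and those of 6 mammary epithelial markers (only Epcam and Krt8 with a peak) to 149 to 198 and 227 to 286. Single markers in BAT did not all follow their sum. The mean at the adipocyte marker Adipoq was 932 in flox and 1215 in AKO, while the other adipocyte markers were lower in AKO. At the endothelial marker Tek it was 68.8 in flox and 63.3 in AKO, while Kdr and Tie1 were higher in AKO. In iWAT the adipocyte sums overlapped, at 2005 to 2553 in flox and 2054 to 2206 in AKO, Ucp1 had no start-site peak, and the mammary epithelial sum was 65.6 to 95.6 in flox and 105 to 121 in AKO. The fibroblast sums overlapped in both tissues (921 to 962 in flox and 785 to 1199 in AKO BAT). The skeletal muscle sums (Ckm and Myod1 without a peak) overlapped in BAT and were 780.5 to 971 in flox and 740.0 to 775 in AKO iWAT. The 2 muscle markers with a peak differed in iWAT. Mean reads were 748 in flox and 620 in AKO at Mylpf, and 137 and 141 at Acta1. No macrophage or lymphocyte marker had a start-site peak in either tissue. In a whole tissue, fewer cells of a type and less open chromatin per cell cannot be told apart, and the part of these shifts in the results below was not tested.

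GAS elements, the sequences that STAT5 factors bind, have the form TTCNNNGAA, in which N is any base. Printed below are GAS elements inside member peaks of BAT, on the forward strand of GRCm38 (mm10) and with the element in capitals. They were picked to show the Cish start-site peak, which holds 4 of them, and 1 or more peaks each of Igf1, Ghr, Socs3 and Jak2.
Cish, chr9:107296650-107296676: cgcccagttTTCCTGGAAagttcttgg
Cish, chr9:107296661-107296687: cctggaaagTTCTTGGAAatctgtcaa
Cish, chr9:107296755-107296781: agcccgcggTTCTAGGAAgatgaggct
Cish, chr9:107296772-107296798: agatgaggcTTCCGGGAAgggctggga
Igf1, chr10:87862974-87863000: ttaggggccTTCCTGGAAgaaagtaca
Igf1, chr10:87902125-87902151: gggctccagTTCTCAGAAaggaaattc
Igf1, chr10:87902140-87902166: gaaaggaaaTTCGCAGAAgtgagtgaa
Ghr, chr15:3648804-3648830: gaatcccttTTCTGAGAAaaaccaaag
Ghr, chr15:3648901-3648927: gttcttcctTTCCCAGAAtcctcaagg
Socs3, chr11:117969230-117969256: gccccccgaTTCCTGGAActgcccggc
Jak2, chr19:29239160-29239186: gaaagcaacTTCCAGGAAaatgaattt
Within 300 bases around the peak centre, 16 of 81 member peaks in BAT held a GAS element, or 19.8%, against 9.14% of all BAT peaks. In iWAT it was 10 of 39 member peaks, or 25.6%, against 8.08%. The stricter form TTCCNGGAA was found in 4 member peaks in BAT, or 4.94%, against 1.43%, and in 2 in iWAT, or 5.13%, against 1.34%. The BAT peaks with a GAS element in this central window were 7 of Ghr, 4 of Igf1, 2 of Socs3 and 1 each of Cish, Jak2 and Stat5a. Over the whole length of the peaks, 23 of the 81 held one. The Igf1 element printed at chr10:87862974-87863000 lies outside the central window of its peak, which is not counted among the 4. None of the 7 Prlr, 6 Stat5b and 10 Igf1r windows nor the single Socs2 window held one. A PPAR response element, searched as a direct repeat of AGGTCA spaced by 1 base with up to 3 mismatches, was in 20 of 81 member peaks in BAT, or 24.7%, against 32.3% of all peaks, and in 12 of 39 in iWAT, or 30.8%, against 28.5%. Both motifs were searched on both strands, the stricter form is a subset of TTCNNNGAA, and a match is a description of letters, not of a bound factor.

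**Figure D1:**
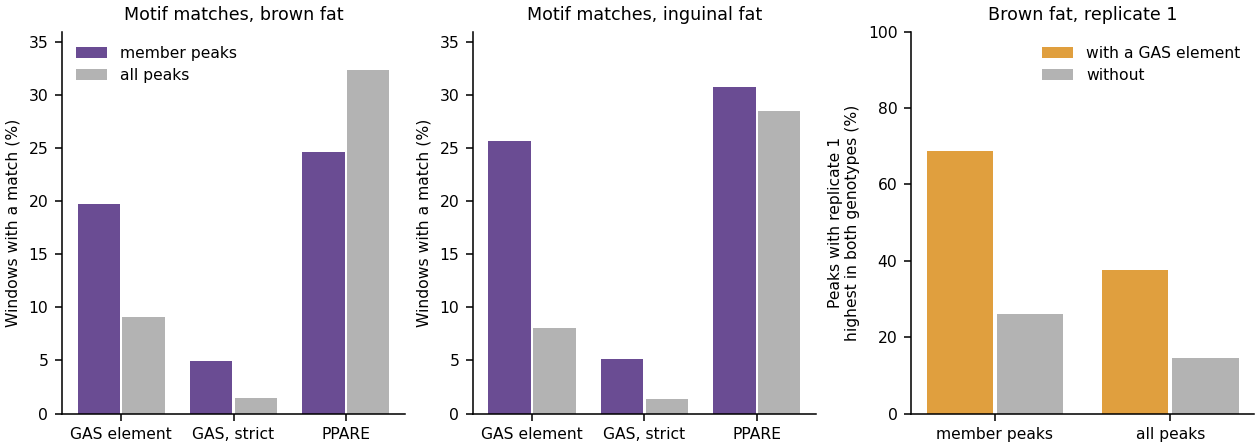
Share of 300-base windows with a GAS element, its stricter form or a PPAR response element (PPARE) in member peaks and in all peaks of brown fat (left) and inguinal fat (middle), and share of brown fat peaks at which replicate 1 was highest in both genotypes, with and without a GAS element in the window (right). GAS elements are in 19.8% and 25.6% of member windows against 9.14% and 8.08% of all, and replicate 1 was highest at 68.8% of member peaks with one there.

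No member peak passed an adjusted p under 0.1 in either tissue with limma, and neither did any of the other peaks, so the share called was 0% in BAT and 0% in iWAT. At an unadjusted p under 0.05, 4 of the 81 member peaks in BAT were lower in AKO and 5 were higher, against a background of 5.59% and 3.46% of all BAT peaks. In iWAT 1 of 39 member peaks was lower and 1 was higher, against 7.42% and 7.61%. By the values alone, all AKO samples lay below all flox samples at 9 member peaks in BAT and above them at 6, against 8.84% and 8.77% of all BAT peaks, and in iWAT at 3 and 4 of 39, against 10.3% and 10.6%. Without AKO replicate 3 the BAT count at p under 0.05 was 16 in place of 9. The share of all BAT peaks in that fit is not given here, so this count does not set the members apart. Counts tested with DESeq2 gave 1 called member peak in BAT, at the Cish promoter, with 0.408% of the BAT peaks it tested called, and none in iWAT, with 1.18% called. With edgeR no member peak was called in either tissue, with 0.135% of BAT and 4.68% of iWAT peaks called, and 9 of the BAT and 2 of the iWAT member peaks had an unadjusted p under 0.05 with limma.

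The direction in BAT depended on the covariate. With PC1 in the fit, 34 member peaks had a log2 fold change below 0 and 47 above, with a median of 0.070 against 0.0067 for all BAT peaks. Without it, 57 were below 0 and 24 above, the median was -0.21 against -0.014, and 31 of the 81 changed sign. Among the genes with such sign changes were Cish, with 6 of 6 peaks above 0 with PC1 and 6 of 6 below 0 without it, Ghr, with 14 of 21 above 0 with PC1 and 20 of 21 below 0 without it, and Igf1, with 6 of 10 above 0 and 9 of 10 below 0. Directions are therefore given below as the samples show them, and fold changes with PC1 as fitted. In iWAT the member median was -0.0071, against -0.00089 for all peaks, with 20 peaks below 0 and 19 above. Of the start-site peaks, 8 of 9 in BAT lay above 0 with PC1, from -0.022 at Stat5a to 0.66 at Cish, and 5 of the 9 lay below 0 without it. In iWAT 6 of 8 lay below 0, from -0.42 at Prlr to 0.11 at Cish.

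**Figure D2:**
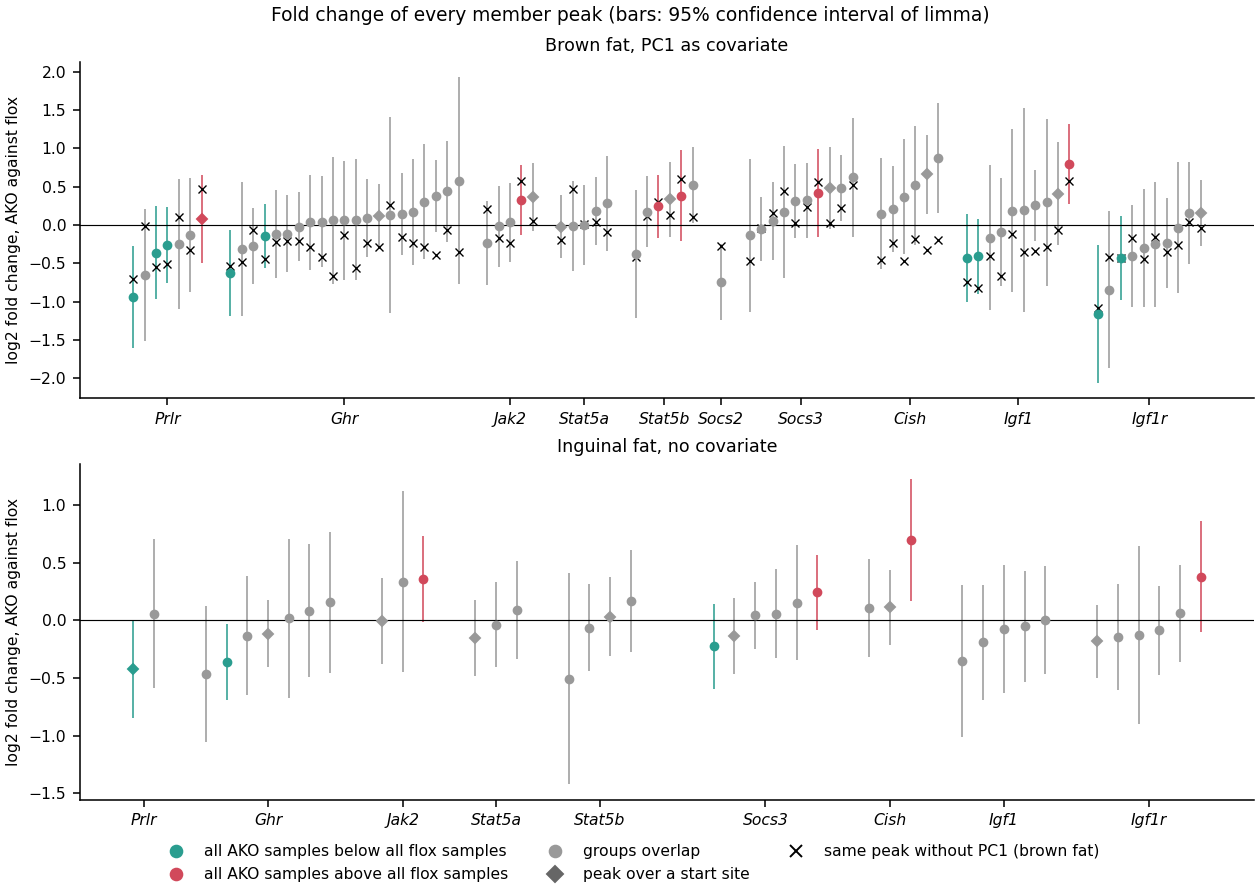
Log2 fold change of AKO against flox (vertical axis) for each of the 81 brown fat and 39 inguinal member peaks, grouped by gene and sorted, with the 95% confidence interval of limma. Crosses give the brown fat fold change without PC1, which lies below the fitted point at every Cish peak, and colored points mark the 15 brown fat and 7 inguinal peaks whose groups do not overlap.

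Prlr, the prolactin receptor, had 7 peaks in BAT, of which 4 did not overlap between the genotypes. That was 57.1% of its peaks, against 17.6% of all BAT peaks, with 3 lower and 1 higher in AKO. A peak 160 kb upstream of its start site (chr15:10017079-10017608) held 285, 228 and 312 normalized reads in the flox samples against 215, 145 and 206 in the AKO samples. A second, 78.9 kb upstream (chr15:10098551-10098863), held 80.5, 55.4 and 99.6 for flox and 43.3, 54.1 and 43.2 for AKO. At 51.7 kb upstream the values were 133, 109 and 114 for flox and 104, 69.5 and 77.7 for AKO. All 3 distal peaks were lower in every AKO mouse than in any flox mouse. The 78.9 kb peak had the smallest p of the gene, with log2 fold change -0.94, SE 0.28, adjusted p = 0.480 by limma, so it did not pass the test. The start-site peak of Prlr (chr15:10177461-10178460, 0.305 kb inside the gene) lay the other way, with 136, 139 and 145 for flox and 145, 286 and 177 for AKO. AKO replicate 1 exceeded flox replicate 3 by less than 1 read, AKO replicate 2 held the most, and the log2 fold change was 0.077 with PC1 and 0.47 without it. In iWAT Prlr had 2 peaks, and at its start-site peak (chr15:10177521-10178451) every AKO aliquot was below every flox aliquot, with 80.5, 94.5 and 78.3 for flox and 77.2, 61.7 and 51.3 for AKO. Its log2 fold change was -0.42 (SE 0.18, adjusted p = 0.334). The 300 bases at the centre of the most distal Prlr peak are shown because this peak had the highest mean of the 7 and no overlap, with the best match to a PPAR response element in capitals (3 mismatches, chr15:10017420-10017432).
Prlr, chr15:10017194-10017493: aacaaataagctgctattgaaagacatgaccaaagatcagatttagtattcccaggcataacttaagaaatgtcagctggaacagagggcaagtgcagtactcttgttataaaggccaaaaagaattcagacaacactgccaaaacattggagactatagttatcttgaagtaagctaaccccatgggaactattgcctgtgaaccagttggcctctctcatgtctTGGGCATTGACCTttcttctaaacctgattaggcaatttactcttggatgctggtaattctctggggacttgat

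Ghr, the growth hormone receptor, had the most peaks of the route, 21 in BAT, spread from 138 kb upstream to 133 kb inside the gene, and 7 in iWAT. Its start-site peak (chr15:3581877-3583639) was the strongest of the 21, with 1231, 921 and 856 normalized reads in the flox samples against 937, 639 and 897 in the AKO samples, and the groups overlapped. The log2 fold change was 0.12 with PC1 (adjusted p = 0.867) and -0.28 without it. At 2 of the 21 peaks the AKO mice all lay below the flox mice, against 8.84% of all BAT peaks. The peak 43.7 kb upstream (chr15:3626812-3627137), which had the smallest p of the gene, held 77.9, 117 and 102 for flox and 72.2, 65.7 and 64.3 for AKO (log2 fold change -0.63, SE 0.24, adjusted p = 0.525), and the intron 1 peak 86.6 kb inside the gene held 198, 172 and 154 for flox and 136, 104 and 146 for AKO. At the peak 65.5 kb upstream (chr15:3648377-3649130), whose 2 GAS elements are printed above, the values were 475, 200.3 and 138 for flox and 399, 139 and 113 for AKO, so replicate 1 exceeded the other mice of its genotype by more than the genotypes differed. In iWAT the start-site peak held 357, 339 and 376 for flox and 324, 321 and 344 for AKO and overlapped. The inguinal peak 125 kb upstream (chr15:3707730-3707997) was lower in every AKO aliquot, with 73.4, 70.0 and 58.5 for flox and 51.9, 53.7 and 50.3 for AKO (log2 fold change -0.36, SE 0.14, adjusted p = 0.291), and the BAT peak at the same place overlapped.

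Jak2, the kinase that both receptors use, had 5 peaks in BAT and 3 in iWAT. A peak about 10 kb upstream of its start site was higher in every AKO sample than in any flox sample in both tissues. In BAT (chr19:29241532-29242405) it held 113, 149 and 159 normalized reads in the flox samples against 209, 228 and 187 in the AKO samples, and in iWAT (chr19:29241582-29241893) 44.2, 47.8 and 61.1 for flox and 62.2, 63.9 and 69.5 for AKO. By limma the BAT peak had log2 fold change 0.33, SE 0.19, adjusted p = 0.654, and the iWAT peak, the smallest p of the gene there, log2 fold change 0.36, SE 0.16, adjusted p = 0.346, so neither passed the test. The start-site peak did not separate the groups, with 813, 766 and 647 for flox and 807, 603 and 913 for AKO in BAT (log2 fold change 0.37, SE 0.19, adjusted p = 0.610) and 547, 481 and 567 for flox and 453, 529.7 and 614 for AKO in iWAT (log2 fold change -0.0071). The upstream peak is shown because it alone among the members had no overlap in the same direction in both tissues. Its 300 central bases hold neither a GAS element nor a PPAR response element, and no letter is in capitals.
Jak2, chr19:29241819-29242118: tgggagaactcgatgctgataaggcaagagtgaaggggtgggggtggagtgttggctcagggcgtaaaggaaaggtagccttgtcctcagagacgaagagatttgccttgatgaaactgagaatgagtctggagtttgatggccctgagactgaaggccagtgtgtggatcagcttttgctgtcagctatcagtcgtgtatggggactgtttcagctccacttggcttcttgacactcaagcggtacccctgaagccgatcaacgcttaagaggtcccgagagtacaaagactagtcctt

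Stat5a and Stat5b, which lie side by side on chromosome 11 and encode the transcription factors of the route, had no called peak. The Stat5a start-site peak (chr11:100859006-100860861) held 1477, 1323 and 1299 normalized reads in the flox samples against 1223, 1043 and 1315 in the AKO samples, and its log2 fold change was -0.022 (adjusted p = 0.980). The smallest p of Stat5a was at 2.87 kb inside the gene, where the values were 145, 140.4 and 145 for flox and 164, 88.8 and 167 for AKO (adjusted p = 0.775). None of the 5 Stat5a peaks in BAT or 3 in iWAT separated the groups, and the iWAT start-site peak held 462, 468 and 506 for flox and 377, 467 and 452 for AKO. By limma the log2 fold change was -0.15 (SE 0.14, adjusted p = 0.650). Of the peaks assigned to Stat5a, 2 in BAT and 1 in iWAT lie within Stat3, the gene of a related factor, so their assignment to Stat5a is uncertain. Stat5b had 6 peaks in BAT, of which 2 in its intron 1 were higher in every AKO mouse, against 8.77% of all BAT peaks. The one 21.3 kb inside the gene (chr11:100828893-100830039) held 164, 157 and 176 for flox and 200.0, 209 and 203 for AKO, a narrow spread within each genotype, and the one 4.83 kb inside held 36.6, 57.6 and 51.7 for flox and 79.4, 79.2 and 62.4 for AKO. The smallest p was at a further intron 1 peak, 28.2 kb inside, with 115, 124 and 80.2 for flox and 129, 85.0 and 129 for AKO, an overlap and log2 fold change 0.52, SE 0.21, adjusted p = 0.539. The Stat5b start-site peak overlapped in BAT, with 488, 389 and 417 for flox and 459, 404 and 562 for AKO (log2 fold change 0.34, SE 0.21, adjusted p = 0.666), and in iWAT, with 199.6, 170.1 and 186 for flox and 216, 177 and 176 for AKO. In iWAT the smallest p of Stat5b was at 21.6 kb inside the gene, with 77.7, 52.3 and 75.7 for flox and 69.2, 24.0 and 63.1 for AKO (log2 fold change -0.51, SE 0.39, adjusted p = 0.586), where AKO replicate 2 was far below the rest.

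The feedback inhibitors of the route are Socs2, Socs3 and Cish. Socs2, whose product limits growth hormone signaling, had no peak in iWAT and a single peak in BAT (chr10:95391869-95392464, 24.7 kb from the start site). This peak lies inside the gene but outside its principal transcript. It held 134, 199 and 260.0 normalized reads in the flox samples against 141, 187 and 149.7 in the AKO samples, and the groups overlapped. With PC1 the log2 fold change was -0.75 (SE 0.21, adjusted p = 0.466), and without it -0.27. Socs3, which is induced by many cytokines, had 10 peaks in BAT with 8 log2 fold changes above 0. At a peak 19.4 kb downstream of its start site (chr11:117949493-117950136), beyond the end of the gene, every AKO mouse was higher, with 112, 163 and 163 for flox and 205, 201 and 232 for AKO. The fitted log2 fold change was 0.42 (SE 0.24, adjusted p = 0.647). The smallest p of Socs3 in BAT was at the peak 9.34 kb downstream, with 109, 110.1 and 86.7 for flox and 125, 100.4 and 133 for AKO. The limma log2 fold change was 0.48 (SE 0.18, adjusted p = 0.528). Its start-site peak held 885, 655 and 713 for flox and 916, 518 and 915 for AKO and overlapped, since AKO replicate 2 was the lowest mouse and the other AKO mice the highest. In iWAT the 19.5 kb peak lay the other way, with 171, 225 and 164 for flox and 157, 156 and 159 for AKO (log2 fold change -0.23, SE 0.16, adjusted p = 0.540), and the peak 29.1 kb downstream was higher in every AKO aliquot, with 65.6, 62.3 and 65.4 for flox and 69.2, 74.2 and 86.6 for AKO. The log2 fold change was 0.24 (SE 0.14, adjusted p = 0.455). The Socs3 start-site peak of iWAT overlapped, with 451, 394 and 485 for flox and 385, 388 and 432 for AKO (log2 fold change -0.14).

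Cish, the inhibitor whose promoter carries the cluster of GAS elements printed above, had 6 peaks in BAT and the highest level per length of any member start-site peak, 1398 normalized reads per kb over all samples. Its start-site peak (chr9:107296432-107297058), centred in the 5′ UTR of the first exon of the principal transcript, held 1435, 847 and 605 normalized reads in the flox samples against 1194, 396 and 784 in the AKO samples. Flox replicate 1 and AKO replicate 1 were the highest of their genotypes, and the spread within genotypes exceeded the difference between them. This was the member peak that DESeq2 called in BAT with PC1 (log2 fold change 0.68, adjusted p = 0.0591). With limma the log2 fold change was 0.66 (SE 0.22, adjusted p = 0.495), with edgeR the adjusted p was 0.145, and without PC1 the sign turned, to -0.33 with limma and -0.28 with DESeq2. In the plain means flox was higher, at 962 ± 427 against 791 ± 399 (SD, n = 3 each), so the call rests on the covariate. The other 5 BAT peaks all overlapped and had log2 fold changes from 0.15 to 0.87 with PC1. In iWAT, where the aliquots share 1 pool, the Cish start-site peak held 195, 195 and 204 for flox and 244, 207 and 195 for AKO (log2 fold change 0.11, adjusted p = 0.743). A weak inguinal peak 20.0 kb downstream (chr9:107315971-107316143) was higher in every AKO aliquot, with 15.0, 15.6 and 17.2 for flox and 18.4, 34.3 and 28.9 for AKO (log2 fold change 0.70, SE 0.23, adjusted p = 0.230), the lowest adjusted p of any member peak in iWAT.

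Igf1, the growth factor that growth hormone induces, had 10 peaks in BAT, of which 3 did not overlap. That was 30% of its peaks, against 17.6% of all BAT peaks. Neighbouring peaks in intron 2 were lower in every AKO mouse. The one 47.2 kb inside the gene (chr10:87906134-87906702) held 357, 284 and 266 normalized reads in the flox samples against 225, 127 and 168 in the AKO samples, and the one 45.3 kb inside held 99.8, 62.1 and 71.1 for flox and 55.7, 38.6 and 42.2 for AKO. For the 47.2 kb peak the log2 fold change was -0.41 (SE 0.21, adjusted p = 0.602) with PC1 and -0.83 (adjusted p = 0.343) without it by limma, and DESeq2 without PC1 called it (log2 fold change -0.79, adjusted p = 0.0977). The smallest p of the gene was at a weak peak 34.4 kb inside it (chr10:87893537-87893721), higher in every AKO mouse, with 20.9, 17.0 and 20.7 for flox and 33.0, 23.2 and 33.6 for AKO. Its log2 fold change was 0.79 (SE 0.22, adjusted p = 0.466). The start-site peak (chr10:87860204-87861088) held 343, 175 and 190.2 for flox and 276, 179.6 and 201 for AKO and overlapped. By limma the log2 fold change was 0.41 (SE 0.28, adjusted p = 0.703). In iWAT none of the 5 Igf1 peaks separated the groups. The smallest p there was 140 kb upstream, with 48.5, 34.5 and 53.4 for flox and 48.4, 36.5 and 23.5 for AKO (adjusted p = 0.593). The 47.2 kb peak is shown because DESeq2 called it without PC1, with its best match to a PPAR response element in capitals (2 mismatches, chr10:87906335-87906347).
Igf1, chr10:87906269-87906568: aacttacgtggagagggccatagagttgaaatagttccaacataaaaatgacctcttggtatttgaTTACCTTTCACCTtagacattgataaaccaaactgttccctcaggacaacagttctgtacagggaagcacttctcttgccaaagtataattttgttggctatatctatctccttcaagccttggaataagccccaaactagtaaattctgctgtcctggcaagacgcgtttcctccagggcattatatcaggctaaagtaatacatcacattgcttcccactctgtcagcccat

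Igf1r, the receptor of insulin-like growth factor 1, had 10 peaks in BAT with 8 log2 fold changes below 0. The largest difference of all member peaks was in its intron 2, 118 kb from the start site (chr7:68070655-68070907), with 90.4, 89.4 and 54.3 normalized reads in the flox samples against 27.8, 50.2 and 31.7 in the AKO samples. The AKO mice all lay below the flox mice there, and limma gave log2 fold change -1.16, SE 0.38, adjusted p = 0.496, with -1.08 without PC1. A second intron 2 peak, 133 kb inside the gene, held 120.2, 134 and 147 for flox and 92.8, 86.9 and 119 for AKO. The fitted log2 fold change was -0.43 (SE 0.23, adjusted p = 0.623). The start-site peak (chr7:67950917-67952679) was even between the groups, with 802, 634 and 609 for flox and 676, 608 and 687 for AKO. The limma log2 fold change was 0.16 (SE 0.18, adjusted p = 0.820). In iWAT the start-site peak held 451, 412 and 414 for flox and 340.0, 371 and 416 for AKO and overlapped by 1 aliquot. The log2 fold change was -0.18 (SE 0.14, adjusted p = 0.569). The 133 kb peak of iWAT, the smallest p of the gene there, was weak and higher in every AKO aliquot, with 23.5, 14.5 and 24.1 for flox and 25.4, 27.4 and 26.7 for AKO. Its log2 fold change was 0.38 (SE 0.21, adjusted p = 0.437). The whole BAT peak at 118 kb is shown for its place at the end of the range. It holds neither motif, and no letter is in capitals.
Igf1r, chr7:68070655-68070907: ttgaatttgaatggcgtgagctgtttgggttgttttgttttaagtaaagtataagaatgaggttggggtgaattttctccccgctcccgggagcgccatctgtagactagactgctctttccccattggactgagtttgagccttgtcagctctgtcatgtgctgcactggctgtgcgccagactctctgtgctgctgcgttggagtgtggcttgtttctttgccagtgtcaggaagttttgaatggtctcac

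The mice of a genotype differed from each other more at Cish, Igf1 and Ghr than at the other members, a grouping made after their values were seen. Replicate 1 was the highest of both the flox and the AKO mice at 6 of 6 Cish, 8 of 10 Igf1 and 10 of 21 Ghr peaks in BAT, together 24 of 37, or 64.9%. At the 44 peaks of the other 7 genes it was so at 4, or 9.09%, and over all BAT peaks at 16.7%. The median standard deviation within genotypes, on the log2 scale, was 0.44 at the Cish, Igf1 and Ghr peaks and 0.28 at those of the other members, against 0.27 for all BAT peaks. By gene it was 0.640 at Cish and 0.459 at Igf1, while Ghr, at 0.374, lay close to Socs2 (0.370), Prlr (0.355) and Igf1r (0.342). The remaining genes lay from 0.180 at Stat5a to 0.249 at Jak2. Replicate 1 was the highest of both genotypes at 11 of the 16 member peaks with a GAS element in the central 300 bases and at 17 of the other 65. Over the whole length of the peaks, 7 of these 65 held one as well, and the counts were 14 of 23 peaks with a GAS element and 14 of 58 without one. The genotypes separated at 0 of the 23 and at 15 of the 58, against 17.6% of all BAT peaks. The part of the GAS element and that of the spread between mice in these counts were not tested. The labels give no link between the flox and AKO mice of the same number. Flox replicate 1 was also the deepest BAT library and AKO replicate 1 had 12886038 reads in peaks, and the part of depth was not tested. Without both replicates 1, which leaves 2 mice a genotype, the AKO mice lay below the flox mice at 24 of 81 member peaks, or 29.6%, against 19.4% of all BAT peaks. They lay above them at 7, or 8.64%, against 18.2%. The median log2 fold change was then -0.064, and 5 member peaks, or 6.17%, were lower and 0 higher at an unadjusted p under 0.05, against 5.04% and 1.84% of all BAT peaks, with 0 called by limma.

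**Figure D3:**
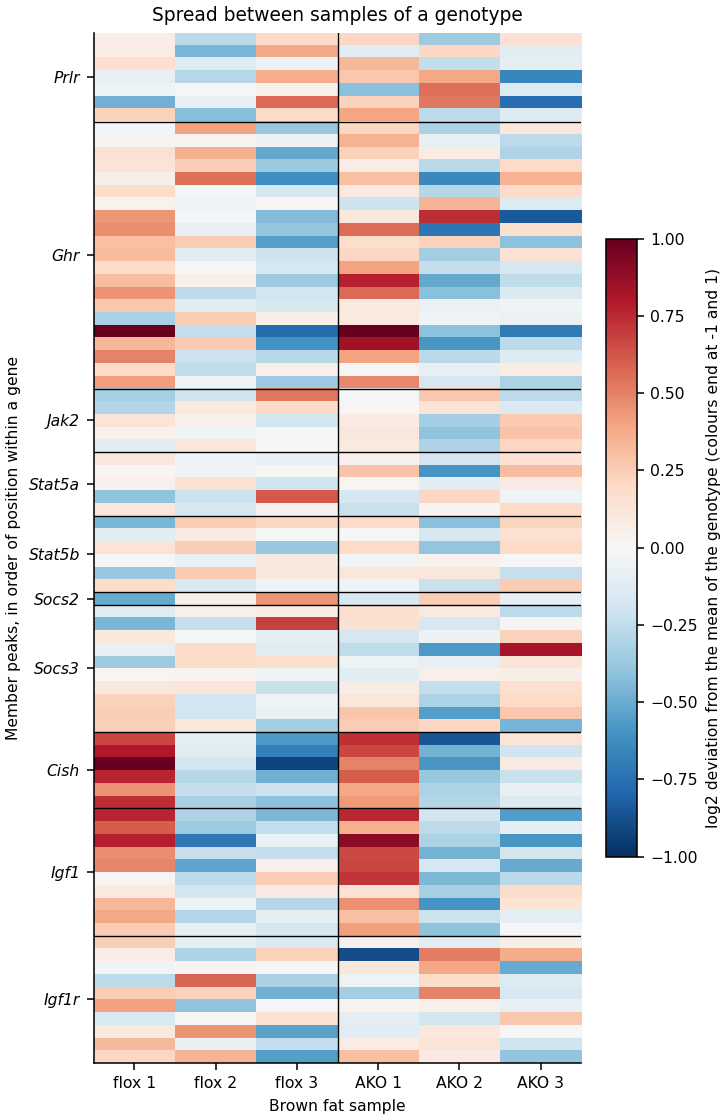
Log2 deviation of each brown fat sample (columns) from the mean of its genotype at each of the 81 member peaks (one line each, grouped by gene), with red above and blue below that mean. Replicate 1 of both genotypes is red at all 6 Cish peaks and at most Igf1 peaks, and no such pattern is seen at Jak2, Stat5a, Stat5b or Igf1r.

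Summed over all its peaks, no member gene was called in either tissue by limma, with 0.00584% of all genes called in BAT and 0% in iWAT. In BAT 2 of the 10 sums had an unadjusted p under 0.05, against 9.58% of all genes: Socs2, whose sum is its single peak (adjusted p = 0.346), and Socs3, with 2712, 2303 and 2424 for flox and 2861, 2213 and 3009.8 for AKO (log2 fold change 0.33, SE 0.14, adjusted p = 0.511). In iWAT 0 of the 9 sums did, against 14.9%. No gene sum separated the groups in either tissue. The widest spread was that of Cish in BAT, with 5307, 2929.9 and 2455 for flox and 3993, 1939 and 2623 for AKO, and of Igf1, with 2563, 1555 and 1636 for flox and 2082, 1085 and 1276 for AKO. The Prlr sum was 809, 675 and 896 for flox and 708, 738 and 622 for AKO in BAT and 114, 136 and 98.1 for flox and 115, 87.9 and 82.3 for AKO in iWAT, and the Ghr sum 4134, 3276 and 2769.5 for flox and 3481, 2289 and 2612 for AKO in BAT and 611, 574 and 658 for flox and 549.8, 558 and 579.5 for AKO in iWAT.

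**Figure D4:**
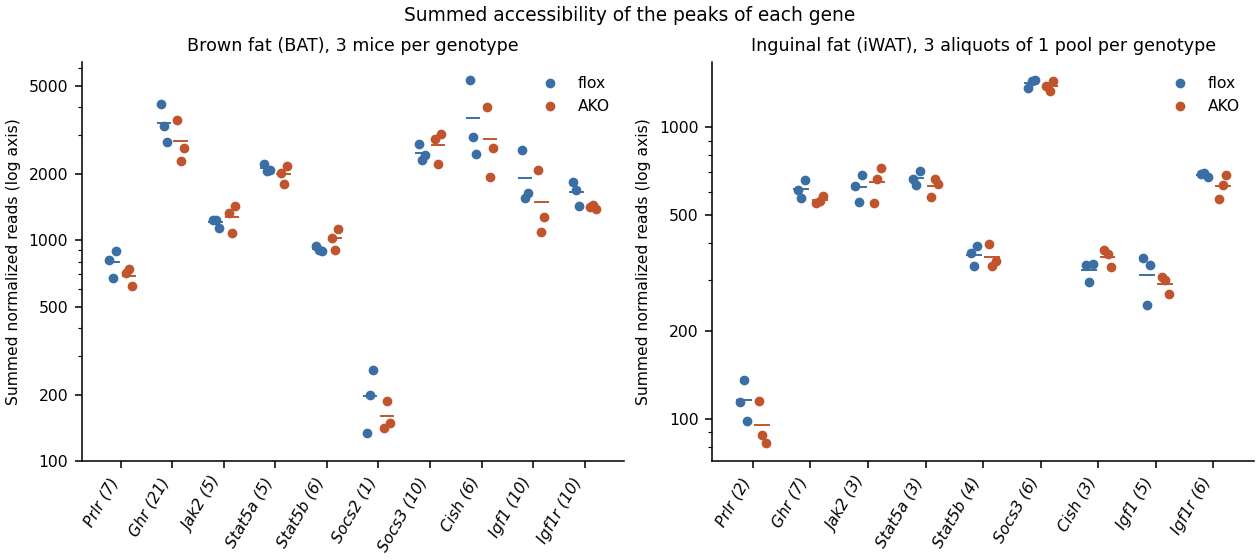
Summed normalized reads over all peaks of each member gene (log axis, number of peaks in brackets) for each flox and AKO sample, with the genotype means as bars, in brown fat (left) and inguinal fat (right). The genotypes overlap for every gene, and the brown fat samples of Cish and Igf1 spread most.

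Of the 81 BAT and 39 iWAT member peaks, 36 of each (44.4% and 92.3%) overlapped a peak of the other tissue by at least 1 base, against 53.8% and 80.5% of all peaks. The tables were normalized separately, so only directions are set side by side. The log2 fold changes had the same sign in 17 of the 36 pairs. The genotypes did not overlap in either tissue at 4 of these pairs: the Jak2 peak about 10 kb upstream, higher in AKO in both, and the Prlr start-site peak, the Socs3 peak 19.4 kb downstream and the Igf1r peak 133 kb inside the gene, which lay in opposite directions. Of all 31936 pairs of peaks, 336 were lower and 383 higher without overlap in both tissues, and 470 lay in opposite directions.

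**Figure D5:**
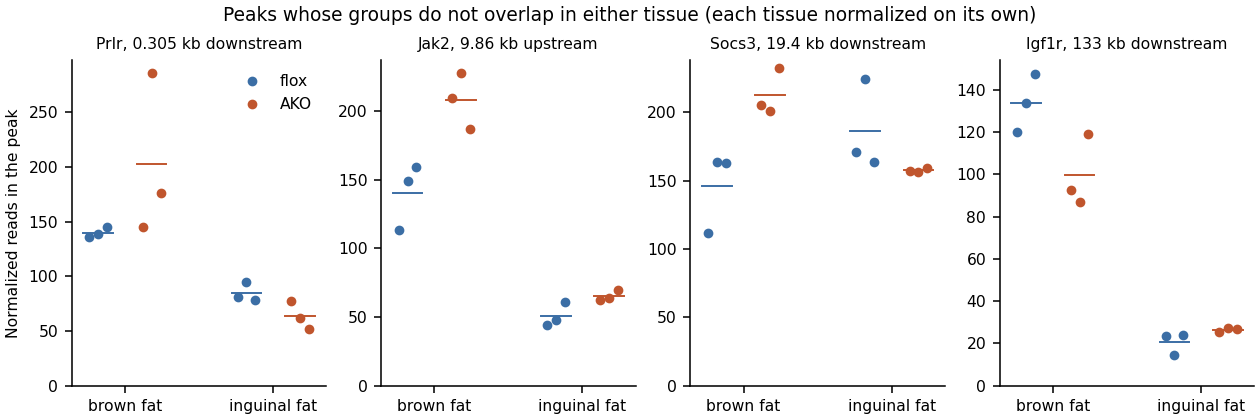
Normalized reads of each flox and AKO sample, with genotype means as bars, at the 4 peaks that separated the genotypes in both tissues. The Jak2 peak is higher in AKO in both, and the Prlr, Socs3 and Igf1r peaks differ in direction between brown and inguinal fat.

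The rest of the route was read from a list of 55 further genes (hormones, kinases and STATs, inhibitors, adaptors, binding proteins, STAT5 targets and related receptors), of which 50 had peaks in BAT and 49 in iWAT. By limma none of their 268 BAT or 184 iWAT peaks was called. In iWAT DESeq2 called 1, at Socs6, and edgeR 7, all lower (2 of Socs6 and 1 each of Grb2, Lifr, Ptpn1, Ptpn11 and Pias1), with 1.18% and 4.68% of all iWAT peaks called by the same tools, and in BAT neither called any with PC1. At an unadjusted p under 0.05, 15 of the BAT peaks were lower and 7 higher, and 19 of the iWAT peaks were lower and 5 higher, with medians of 0.031 and -0.032, together 8.21% and 13.0% of them against 9.05% and 15.0% of all peaks. In BAT the smallest p among lower peaks were at Ccnd1, a cell cycle gene, with 7.32, 18.5 and 31.0 for flox and 14.4, 59.9 and 15.4 for AKO (adjusted p = 0.431, an overlap and a sign that turned without PC1), and at Insr, the insulin receptor, with 91.4, 99.0 and 113 for flox and 47.4, 69.5 and 74.8 for AKO (adjusted p = 0.463). Among higher peaks they were at Sos1, an adaptor of the Ras pathway, with 54.9, 37.7 and 31.0 for flox and 60.8, 63.7 and 69.1 for AKO (adjusted p = 0.444), and at Socs1, a further JAK inhibitor, with 346, 185 and 153 for flox and 274, 199 and 260.0 for AKO (adjusted p = 0.496). In iWAT they were at Pias1, an inhibitor of activated STAT, with 52.0, 66.7 and 45.6 for flox and 24.2, 20.6 and 34.2 for AKO, and at Ptpn11, a phosphatase that relays growth factor signals, with 21.4, 18.9 and 12.1 for flox and 4.61, 9.13 and 3.21 for AKO, both lower (adjusted p = 0.151 and 0.152). On the higher side they were at Csf2rb, the shared receptor chain of several cytokines, with 52.0, 55.6 and 55.9 for flox and 80.7, 79.9 and 75.9 for AKO, and at Il6st, the shared receptor chain of the interleukin-6 family, with 87.7, 91.2 and 81.8 for flox and 115, 121 and 113 for AKO (adjusted p = 0.161 and 0.205).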

How the data were processed

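ATAC-seq was measured in 12 samples, 3 flox and 3 AKO in each of BAT and iWAT. Per the labels and the study's methods, the authors mapped reads to mm10 with BWA 0.7.17-r1188, marked duplicates with Picard 2.8.14, kept autosomal high-quality reads, called broad peaks with MACS2 2.1.1.20160309, removed blacklisted peaks and merged repeated transposase reactions per sample. The deposited values are a signal, reads per peak divided by a DESeq2 size factor. The study's own fold changes and p-values, also in the tables, were not used.

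Whole reads were recovered from 100% of values within 0.001. The main test was limma 3.58.1 on log2(normalized reads + 1), all peaks of a table together, with Benjamini-Hochberg adjustment, a threshold of 0.1, and PC1 as covariate in BAT only. DESeq2 1.42.0 and edgeR 4.0.16 (R 4.3.3) were run on the recovered reads. Peaks were assigned to genes by the authors' nearest start site. Depth limits each value to counting error of its reads. For each member and tissue, the start-site peak (within 1000 bases), the peak with the smallest p and any called peak are given, and of the further genes the 2 smallest p per direction and tissue. Peaks without overlap between genotypes were added after their values were seen. Members and lists were chosen with earlier results of these data known. Marker lists were adipocyte, brown adipocyte, endothelial, fibroblast, macrophage, lymphocyte, mammary epithelium and skeletal muscle. The scripts were tested on simulated data. Alternatives covered scaling, pseudocount, filter, covariate, replicate block, tool, and each sample left out.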

Additional observations from a re-analysis of the deposited data

Results flagged for a closer look

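The genotypes separated in opposite directions in the 2 tissues at 3 of 36 pairs of member peaks, against 470 of all 31936 pairs, or 1.47%. The iWAT samples are aliquots of 1 pool from cold-acclimated mice, and the difference between the tissues was not tested. The nearest flox and AKO samples at Prlr held 144.9 and 145.4 in BAT and 78.3 and 77.2 in iWAT. For Igf1r they held 120.2 and 119.0 in BAT and 24.1 and 25.4 in iWAT. For Socs3 they held 163.3 and 200.9 in BAT and 163.5 and 159.3 in iWAT. At the Prlr start-site peak the log2 fold change was 0.077 in BAT and -0.42 in iWAT. At the Socs3 peak 19.4 kb downstream it was 0.42 in BAT and -0.23 in iWAT. At the Igf1r peak 133 kb inside the gene it was -0.43 in BAT and 0.38 in iWAT.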

How the results depend on the processing

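Over 43 named peaks and all alternatives, 667 fold changes kept their direction and side of the threshold, 30 turned sign and 2 gained a call (Cish start-site, 0.68 with DESeq2, and Igf1 47.2 kb, -0.79 with DESeq2 without PC1). Of the counts and medians, 152 stayed close and 19 moved. The cause was not tested for any of these. DESeq2 called 1 BAT member peak with PC1 and 1 without it. The BAT median was -0.21 without PC1 and -0.22 with DESeq2 without PC1, and ranged from -0.060 to 0.15 with single samples left out. The count at p under 0.05 ranged from 7 to 16 in BAT, 16 without AKO replicate 3, and was 5 without both replicates 1. In iWAT it was 0 with DESeq2, 1 with PC1 and 1 to 3 with single samples left out, and the median ranged from -0.077 to 0.031. For fits with single samples left out, the share of all peaks is not given here. These counts therefore do not set the members apart from other peaks. Of the further genes' peaks, DESeq2 without PC1 called 1 in BAT (Ptpn1), and in iWAT DESeq2 called 1 and edgeR 7. In 150-base windows, 8 BAT and 6 iWAT member peaks held a PPARE, and 1 and 5 iWAT peaks held TTCCNGGAA and TTCNNNGAA.

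Without PC1 in BAT, sign turned at the start-site peaks of Ghr (-0.28), Cish (-0.33), Igf1 (-0.064) and Igf1r (-0.044) and at Stat5a 2.87 kb (-0.093), and with DESeq2 without PC1 these were -0.28, -0.28, -0.11, -0.054 and -0.016. With PC1 added in iWAT, where PC1 separates the genotypes, sign turned at Ghr 0.467 kb (0.15) and 125 kb (0.32), Jak2 10.1 kb (-0.48) and 0.179 kb (1.33), Stat5b 21.6 kb (2.41), Socs3 0.279 kb (0.49), Cish 0.675 kb (-0.79) and Igf1r 0.752 kb (1.14). These 8 turns are among the 30 above. PC1 scores there were -41.4 to -30.9 in flox and 29.4 to 37.8 in AKO, so that fit cannot tell genotype from PC1. The SEs ran from 1.09 at Igf1r to 3.27 at Stat5b, and no direction is read from these values. Leaving out single samples gave -0.49 to 0.13 at Prlr 160 kb (0.13 without flox replicate 3), -0.26 to 0.31 at the Prlr start site, -0.094 to 0.056 at the Stat5a start site, and in iWAT -0.12 to 0.10 at the Jak2 and -0.064 to 0.086 at the Stat5b start site. Without both replicates 1, Stat5a was 0.049. Leaving out both replicates 1 and DESeq2 without PC1 were added after seeing the data.

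The replicate block turned the sign at the Stat5a (0.0011) and Igf1 (-0.0042) start sites and changed no call. The correlations of same-numbered deviations were 0.49, 0.063 and -0.24 in BAT and -0.039, -0.050 and -0.057 in iWAT. In BAT flox replicate 3 and AKO replicate 2, which differ in number, correlated at 0.48. Whether samples of the same number were handled together is not given by the labels and was not tested. The median peak held 70 to 226 reads per BAT sample and 62 to 98 per iWAT sample, which limits what weak peaks can show.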

Other observations

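Over all BAT peaks, members included, replicate 1 was the highest of both genotypes at 2012 of 5353 peaks with a GAS element in the central 300 bases, or 37.6%, against 14.6% of the 53205 peaks without one. In iWAT these shares were 11.4% and 9.86%.

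Of the 4 further STAT5 targets (Bcl6, Pim1, Ccnd1 and Cdkn1a), 12 of 54 BAT peaks were lower in every AKO mouse and 2 were higher, against 8.84% and 8.77% of all BAT peaks, and 9 of the 12 were among the 37 peaks of Bcl6, a transcriptional repressor. In iWAT 2 of 24 peaks of these genes were lower and 4 higher, against 10.3% and 10.6% of all iWAT peaks. Of the related cytokine receptors, 4 of 21 iWAT peaks were lower in every AKO aliquot and 5 were higher, against the same shares of all iWAT peaks. In BAT 1 of 37 was lower and 2 were higher. In iWAT the 4 lower peaks were of Lifr, the receptor of leukemia inhibitory factor, and 3 of the 5 higher ones of Il6st, its signaling partner. None of these peaks was called by limma, and edgeR called 1 of Lifr in iWAT. Among the classes of further genes, the share of peaks without overlap was highest for the STAT5 targets in BAT (25.9%). In iWAT it was highest for the related receptors (42.9%). The other classes ranged from 4.55% to 21.1% in BAT and from 0% to 21.4% in iWAT. Over all peaks the shares were 17.6% and 20.9%.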
